A study of Homo sapiens with 16 samples.

Results

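RNA polymerase II (Pol II) was mapped in hTERT RPE-1 cells before and after merbarone, and described here are the sites that appeared in the 1 h list alone, away from any Pol II of control cells. Peaks of the 3 Pol II lists that overlapped by at least 1 bp were merged into 104562 regions. A region was kept when it held a peak of the 1 h list only and lay over 10 kb from the nearest control peak. This gave 3847 sites, called far 1 h sites below, which is 3.68% of the merged regions. They were 3847 of the 24925 regions found at 1 h only (23.8% of all regions), and the other 21078 lay within 10 kb of a control peak. Since the same lists chose the sites, their position against control and their absence at 30 min are a description and no result.

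hTERT RPE-1 is a wild-type human line from retinal pigment epithelium, immortalised with telomerase, so all values come from 1 line. All groups were kept in 0.1% serum for 48 h, controls included. Control Pol II came from 3 libraries of cells given the vehicle DMSO for 30 min and 3 libraries of untreated cells, which share 1 peak list. Merbarone was given at 200 uM for 30 min (3 libraries) or for 60 min (2 libraries), and TOP2A was mapped in untreated cells (2 libraries). No vehicle library matched the 1 h time. The deposited data are 3 Pol II lists and a TOP2A list, 1 for each condition, with a start and an end for each peak and no height or score. No value below therefore has a spread between replicates, and no test of the conditions could be made. Intervals in parentheses are 95% Wilson intervals, which cover the counting of sites only, and neighbouring sites are not independent.

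Pol II gathers at promoters, pauses shortly after the start, and then moves along the gene body, where it is spread thinly. Pol II peaks away from those of control cells can lie in gene bodies, at enhancers, or at starts not used before. TOP2A, a DNA topoisomerase, passes a duplex through another duplex and removes the supercoils that moving polymerases leave behind and ahead of them. Merbarone is a catalytic inhibitor of topoisomerase II. Positions are of the hg19 genome, and no gene was assigned to them, since the gene table used here is of GRCh38. More cells with Pol II at a site and more Pol II in each cell cannot be told apart in these lists.

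The far 1 h sites were short. Their median width was 209 bp, with quartiles of 174 and 281 bp and a range of 159 to 2524 bp. Only 167 sites (4.34%) reached 500 bp and 13 reached 1 kb, and all of them together covered 968.1 kb. They made up 4.7% (4.56 to 4.85) of the peaks at 1 h and 1.66% of the bases under those peaks. Regions at 1 h only that lay within 10 kb of control were nearly as short (median 219 bp). The median was 1007 bp for regions found in all 3 lists.

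The smallest peak of the 1 h list was 159 bp wide, and many of the sites stood at that floor. This was so for 443 of 3847 (11.5%, 10.5 to 12.6), against 9.41% (9.02 to 9.81) of the 1 h only regions within 10 kb of control. Over the whole 1 h list the share was 4.55%. Regions over 10 kb from control that both merbarone lists held numbered 726, with a median width of 366 bp. That width, like that of regions in all 3 lists, is of peaks merged from several lists, which widens a region by construction, and wider peaks are also likelier to overlap. Of all 4593 peaks at 1 h that lay over 10 kb from control, 83.8% had no overlap at 30 min and so were among the sites.

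**Figure D1:**
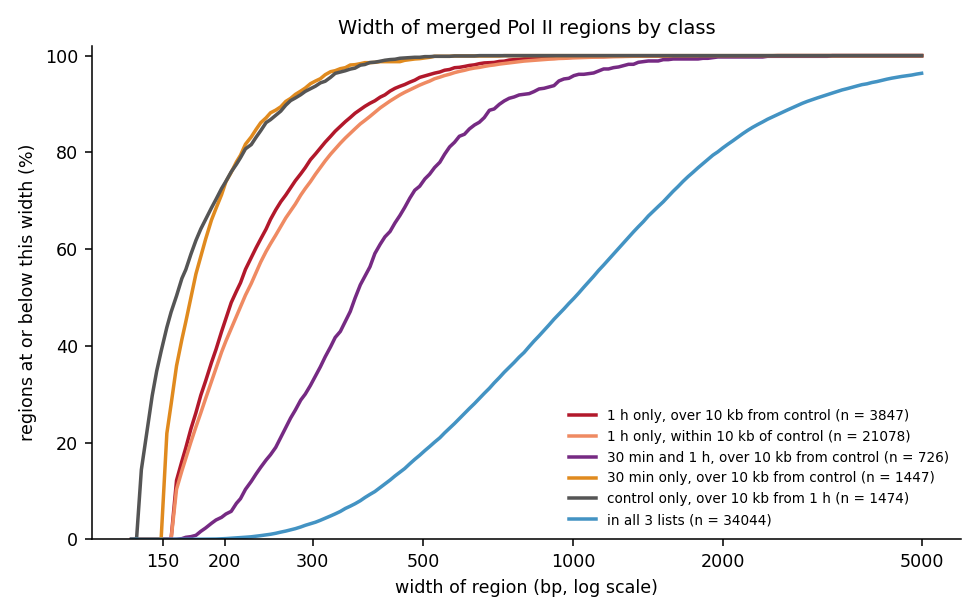
Share of merged Pol II regions (vertical axis, %) at or below a given width (horizontal axis, bp, log scale), 1 line per class. The 1 h only sites over 10 kb from control, with a median of 209 bp, run close to those within 10 kb, with a median of 219 bp. Regions in more than 1 list, such as those in all 3 with a median of 1007 bp, are widened by the merging of their peaks.

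The other lists also held regions of their own away from the rest. Regions at 30 min only that lay over 10 kb from control numbered 1447, or 1.38% of all merged regions. Regions in control only that lay over 10 kb from the nearest 1 h peak numbered 1474, or 1.41%. Both sets were thus smaller than the 3847 far 1 h sites. Their members were narrower too, with medians of 172 and 160 bp, though the smallest peak was 150 bp at 30 min and 136 bp in control. Only 9 and 4 of them reached 500 bp, and none reached 1 kb. Deeper sequencing at 1 h and more bound sites at 1 h cannot be told apart, since the number of reads behind each list is unknown.

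Peaks were made more alike across lists by joining those up to 37 bp apart and leaving out those under 159 bp. The far 1 h sites then numbered 5648, the far 30 min regions 1542 and the far control regions 786. The order of 1 h above 30 min stayed, while control fell below 30 min. These limits leave the 1 h list as it is and thin the other lists, so they add far 1 h sites by their construction.

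The 10 widest far 1 h sites show where the longest peaks called at 1 h alone and far from control lay. The first, at chr1:9371055-9373578, was 2524 bp wide, with the nearest control peak 13149 bp away and the nearest 30 min peak 2964 bp away. The site at chr1:9397179-9399001 was 1823 bp wide and lay 10281 bp from control. These sites belong to a pair of neighbouring runs, of 6 and 18 sites. A site of 1753 bp at chr20:62908907-62910659 lay 21284 bp from control and 46 bp from another far 1 h site. At chr13:110981971-110983294 a site of 1324 bp stood in a run of 25. These wide sites all stood in runs, as did 54.5% of all far 1 h sites. Those in neighbouring runs are not separate cases.

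The remaining wide sites followed that pattern with a single exception. At chr18:47372118-47373287 and chr18:47373734-47374898, sites of 1170 and 1165 bp stood in the same run of 8, with a 30 min peak 1178 and 1120 bp away. Others were 1182 bp at chr19:33882510-33883691 (a run of 17), 1083 bp at chr7:98706375-98707457 (a run of 5) and 1067 bp at chr3:14455678-14456744 (a run of 23). The exception was 1284 bp at chr3:71552959-71554242. It stood 74788 bp from control, 6081 bp from a 30 min peak and 9490 bp from the nearest other far 1 h site.

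The distance limit fell between sites of nearly the same distance. The nearest ones kept lay 10001 bp from control at chr9:130717692-130717882, 10004 bp at chr15:48436381-48436688 and 10006 bp at chr11:130752130-130752318. The nearest ones not kept lay 9997 bp away at chr19:11167402-11167589, 9996 bp at chr12:80039243-80039424 and 9993 bp at chr14:91688814-91688977. The 3 kept were 189 to 308 bp wide and the 3 not kept 164 to 188 bp, too few to compare.

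Some of the far 1 h sites came in runs and some stood alone. A run was taken as sites up to 5 kb apart, and 2098 of 3847 sites (54.5%, 53.0 to 56.1) had another far 1 h site within that distance. Over all peaks at 1 h, a higher share, 87.9%, had another 1 h peak within 5 kb. That share takes any 1 h peak as a neighbour, and the 54.5% takes far 1 h sites alone. Any other Pol II peak of the 3 lists lay within 5 kb of 64.8% of the far 1 h sites. Of the far 30 min regions 38.6% (36.1 to 41.1), and of the far control regions 28.1% (25.9 to 30.4), had another of their own kind as near. Those sets are smaller, which by itself leaves fewer neighbours. The 2098 sites formed 636 runs, and the other 1749 sites stood alone. Runs of 5 or more numbered 97 and held 792 sites, and runs of 10 or more numbered 22 and held 318 sites on 13 chromosomes.

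Sites in larger runs were wider. The median was 228 bp in runs of 5 or more, 213 bp in runs of 2 to 4 and 201 bp for lone sites. Sites of at least 500 bp made up 8.96%, 4.59% and 2.06% of these classes. Lone sites stood at the floor of 159 bp in 14.6% (13.1 to 16.4) of cases and sites in runs in 8.91% (7.77 to 10.2). Lone sites thus stood at the smallest reported width more often than sites in runs.

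Among the 2 runs of 25 sites each, the one with more covered bases lay at chr13:110971085-111006336. It held 25 sites over 35.3 kb, between 162 and 1324 bp wide, with a median gap of 688 bp. Peaks at 1 h covered 29.9% of it, and neither control nor 30 min had a peak inside. The nearest control peaks stood 10110 bp before it and 42870 bp after it, and the 30 min list reached to 5906 bp before it. The rule keeps control peaks out of every run. It keeps 30 min peaks off the sites, but not out of the gaps between them. At 1 h this stretch held a broken chain of short peaks.

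A run of 25 sites at chr17:16958886-16993547 spanned 34.7 kb, with 17.5% under 1 h peaks. A run of 23 sites at chr3:14455678-14492790 spanned 37.1 kb of the 57.6 kb between control peaks 10158 bp before and 10336 bp after it, with 18.9% under 1 h peaks. The densest of the 10 largest runs lay at chr1:9397179-9412023, where 18 sites covered 69.6% of 14.8 kb. None of these 3 runs held a peak at 30 min.

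Chromosome 21 carried 2 of the 10 largest runs, with 18 sites at chr21:35458097-35488423 and 17 sites at chr21:30685332-30700489, covered over 19.4% and 29.5%. The run at chr19:33876737-33891357, with 17 sites and 44.0% under 1 h peaks, was the only one of the 10 that held a 30 min peak, of 217 bp. The others lay at chr13:97902932-97928333 (15 sites), chr5:60674312-60695793 (14 sites) and chr12:101762107-101775985 (14 sites). No TOP2A peak lay in any of the 10. In the wider set of 97 runs of 5 or more, 67 held no 30 min peak and none held a TOP2A peak. TOP2A was sparse in all sequence over 10 kb from control, at 0.0907 peaks per Mb. These 97 runs had a median span of only 9.15 kb, so their lack of TOP2A is not read as a trait of runs.

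**Figure D2:**
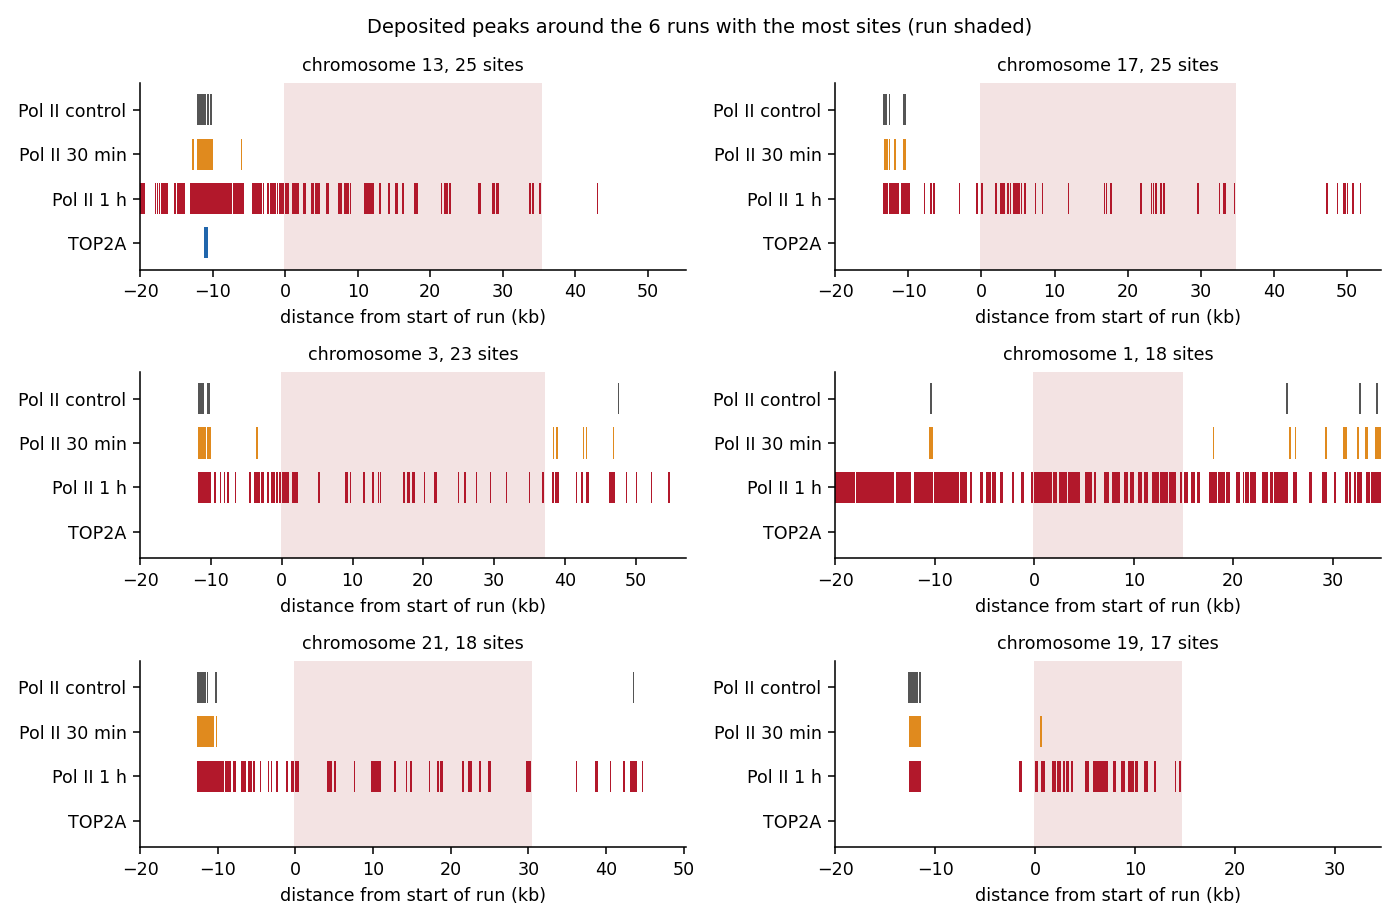
Deposited peaks of the 3 Pol II lists and of TOP2A (rows) around the 6 runs with the most far 1 h sites, drawn to scale as distance from the start of the run (horizontal axis, kb), with the run shaded and 20 kb either side. Control peaks stand outside the shaded runs by the rule, 1 h peaks go on through the runs, and the only 30 min peak inside a run is that on chromosome 19.

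In 6 of the 10 largest runs the edge lay within 400 bp of the 10 kb limit, and in these the chain of Pol II peaks reached a control peak with no gap over 5 kb. On chromosome 13 the 10 kb next to that control peak was covered over 76.9% at 1 h. The part of the run on the side of control was then covered over 39.3% and the part beyond its midpoint over 20.5%. On chromosome 21, for the run of 18 sites, these shares at 1 h were 49.8%, 22.1% and 16.7%. Cover thus thinned at both steps in these examples, and in the run of 23 sites on chromosome 3, at 43%, 24.8% and 13%. In the others of the 6, the 10 kb next to control was less covered than the part of the run on that side. These shares were 17.2% and 22.4% on chromosome 17, and 54.5% and 75.1% on chromosome 1. For the run of 17 sites on chromosome 21 they were 14.2% and 29.3%.

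Cover at 1 h was higher on the side of control in 9 of the 10 largest runs, and the exception was the run of 17 sites on chromosome 21, at 29.3% and 29.7%. The same did not hold over all runs of 5 or more, where the side nearer control was more covered in 52 and the far side in 45. Medians over these 97 runs were 21.7% on the near side and 24.7% on the far side. The difference between the sides of the largest runs was thus not a feature of runs at large. Sides were set by the single nearest control peak. On chromosomes 3 and 1 control lay nearly as close beyond the far end, at 10336 and 10484 bp against 10158 and 10281 bp. For the runs of 17 and 18 sites on chromosome 21 the far distances were 10342 and 13121 bp. In these runs the side is thus a poor measure of distance from control. Over the 97 runs the 10 kb next to the nearest control peak had a median 1 h cover of 10.8%, and in 3 of the 97 it held no 1 h peak at all. Over the 10 largest runs that median was 25%, against 27.1% on the near side of the run.

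Most of the sites were nevertheless not joined to control Pol II. The rule favours this, since a site over 10 kb from control can be joined only through other peaks between them. With all Pol II peaks no more than 5 kb apart joined into domains, 562 sites (14.6%, 13.5 to 15.8) fell in a domain that held a control peak. Among sites in runs the share was 24.5% (22.7 to 26.3), and among lone sites 2.8% (2.13 to 3.68). Of the runs of 10 or more, 11 of 22 were joined in this way. Runs are defined by the same gap of 5 kb, so the contrast of runs with lone sites is not independent of the joining. The share depends on the gap allowed: it was 0.728% with gaps of up to 1 kb and 36.5% with gaps of up to 10 kb. It also depends on the distance limit, at 35.3%, 3.99% and 0% for sites over 5, 20 and 50 kb from control.

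Distance from control was short for most sites. The median was 21367 bp, with quartiles of 14038 and 35790 bp. Sequence between 10 and 20 kb from a control peak, 215 Mb in all, held 8.3 sites per Mb. The density was 3.84 per Mb between 20 and 50 kb, 0.908 between 50 and 100 kb, 0.204 between 100 and 500 kb, and 0.0251 beyond 500 kb. It fell at each step, also without the last class, which held only 16 sites. These lengths include gaps of the assembly, and with the longest stretch without a peak removed on each chromosome the last density was 0.033.

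The far regions found at 30 min only thinned out in the same order, from 2.87 per Mb at 10 to 20 kb to 1.23, 0.578, 0.131 and 0.0188. Both sets held few regions in sequence beyond 500 kb, at 16 and 12. The sites in runs fell from 4.98 to 0.00628 per Mb and lone sites from 3.32 to 0.0188. Runs thus made up 60% of sites at 10 to 20 kb and 25% at 100 to 500 kb. Median width hardly moved with distance, between 206 and 211 bp over the 5 classes.

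**Figure D3:**
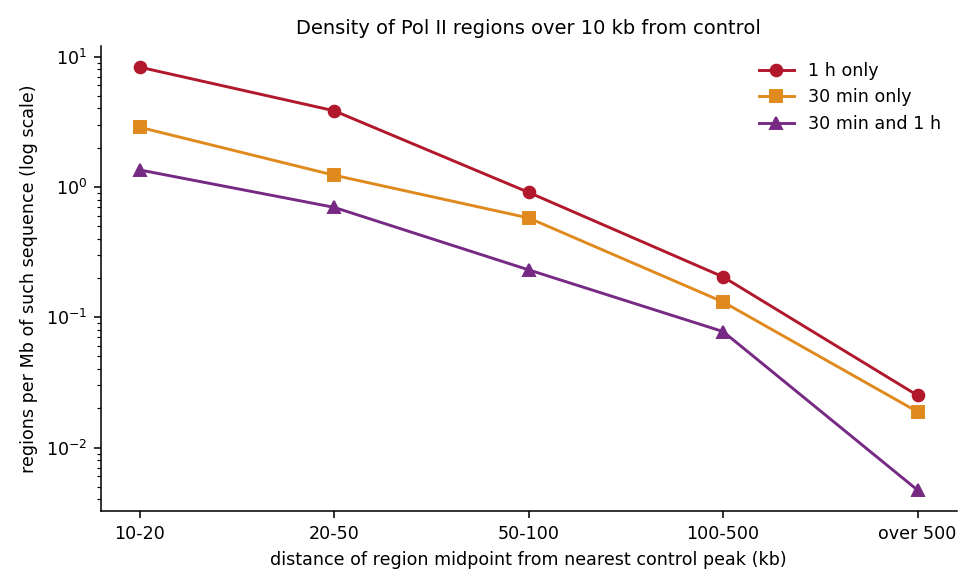
Number of Pol II regions per Mb of sequence (vertical axis, log scale) by the distance of the region's midpoint from the nearest control peak (horizontal axis, kb), for regions over 10 kb from control found at 1 h only, at 30 min only, and at both times. The density of 1 h only sites falls at each step, from 8.3 to 0.0251 per Mb, and the other classes lie below it and fall in the same order.

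Stretches between neighbouring control peaks show how unevenly the sites were spread. Of 12748 stretches over 20 kb long, 1835 (14.4%) had at least 1. The share was 10.2% for stretches of 20 to 50 kb, 17.7% for 50 to 100 kb, 16.1% for 100 to 500 kb and 16.4% for longer ones. Sites lie over 10 kb from both ends, so shorter stretches offer less sequence to hold one, and these shares are not per base. The 345 stretches with the most sites held 50% of all sites. The stretch with the most lay at chr13:110960976-111049205 and held 26. Another at chr10:64952890-65021209 held 23 sites and none of the 10 largest runs.

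The nearest 30 min peak stood at a median of 14345 bp from a far 1 h site. A 30 min peak lay within 1 kb of 451 sites (11.7%, 10.7 to 12.8), within 5 kb of 993 (25.8%, 24.5 to 27.2) and within 10 kb of 1341 (34.9%, 33.4 to 36.4). Over all peaks at 1 h, overlaps included, 95.2% had a 30 min peak within 10 kb. The limit on control also holds away those 30 min peaks that lie on control peaks, so the shares near the sites are lowered by the rule. The rule set no such limit on 30 min peaks themselves, so distances to the 30 min and control lists are not compared.

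Sites with no other Pol II of any list near them made up a smaller group. In 1055 cases (27.4%, 26.0 to 28.9) no other peak of the 3 lists lay within 10 kb. The rule leaves out control peaks within that distance and holds away peaks of the other lists that lie on them, so this share is raised by the rule. It is given without the share over all 1 h peaks. The site farthest from any control, any 30 min and any other Pol II peak was 196 bp wide, at chr10:110316218-110316413, and lay 1303522 bp from control. Behind it came sites of 178 bp at chr7:145702010-145702187, at 1168432 bp, and 197 bp at chr12:128428414-128428610, at 777573 bp. Sites at chr3:35681021-35681187 and at chrX:140985176-140985403, of 167 and 228 bp, followed at 740428 and 713384 bp. All 5 were lone and short.

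The other 2 of the 5 sites farthest from control had 30 min peaks at very different distances. At chr15:28352975-28353310, a site of 336 bp lay 777714 bp from control, 538 bp from another far 1 h site and 1159 bp from a 30 min peak. At chr6:46620654-46620867, a site of 214 bp lay 824238 bp from control and 656624 bp from a 30 min peak. Regions that give signal with any antibody were not filtered out here, and the IgG libraries were not analysed here.

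**Figure D4:**
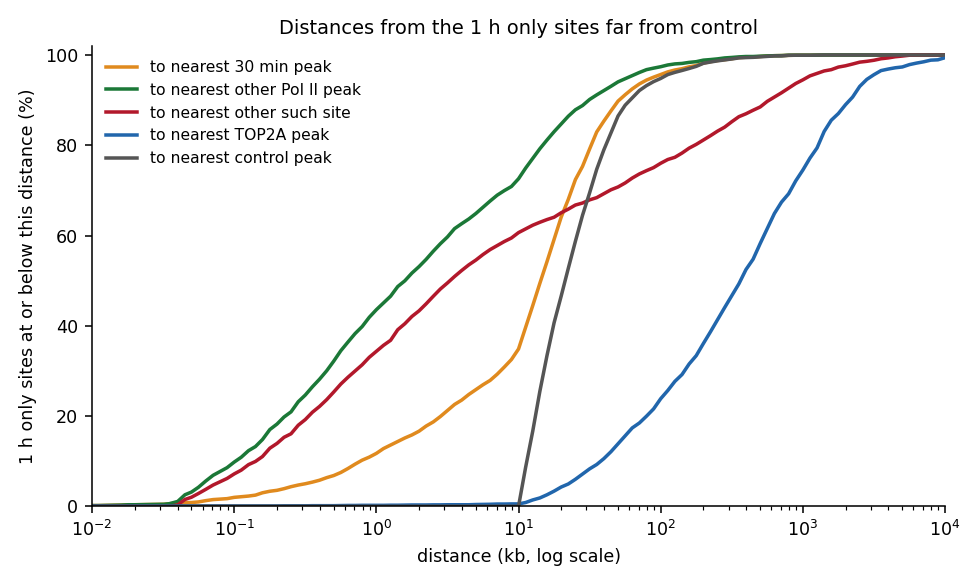
Share of the 3847 far 1 h sites (vertical axis, %) at or below a given distance (horizontal axis, kb, log scale) from the nearest peak of each kind. The line for control starts at 10 kb by the rule, 34.9% of sites have a 30 min peak within 10 kb, and the line for TOP2A lies farthest to the right.

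All 23 chromosomes with Pol II peaks carried far 1 h sites. Chromosome 1 had the most, 406, and chromosome 22 the fewest, 53. As a share of the chromosome's 1 h peaks they ran from 2.12% (1.76 to 2.55) on chromosome 19 to 11.1% (9.52 to 12.8) on chromosome 13, with chromosomes 18 and 21 next at 7.97% and 7.33%. On chromosome 13, 63 of 156 sites stood in 4 runs of 10 or more. Without these runs its share was 6.9%, against 4.33% over all chromosomes without such runs and 4.7% with them. The share on chromosome 13 thus rested in part on 4 runs and stayed above the genome without them.

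The order turned when sites were counted per Mb of sequence over 10 kb from control. Chromosome 19, which has little such sequence (35.1 Mb), then stood highest with 3.05 sites per Mb, and chromosome 17 followed with 2.74. Chromosome 13 had 1.8 and the whole genome 1.53. Chromosome X was lowest with 0.382, followed by chromosome 4 with 0.938. On chromosome 10, the part beyond 60 Mb held 138 sites, or 2.2 per Mb, and the part before it 38, or 0.705 per Mb. All peaks at 1 h were also more numerous beyond 60 Mb, at 2564 against 1370. The sites made up 5.38% and 2.77% of these. That division was chosen after seeing the data, and the number of copies of each part was not tested.

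**Figure D5:**
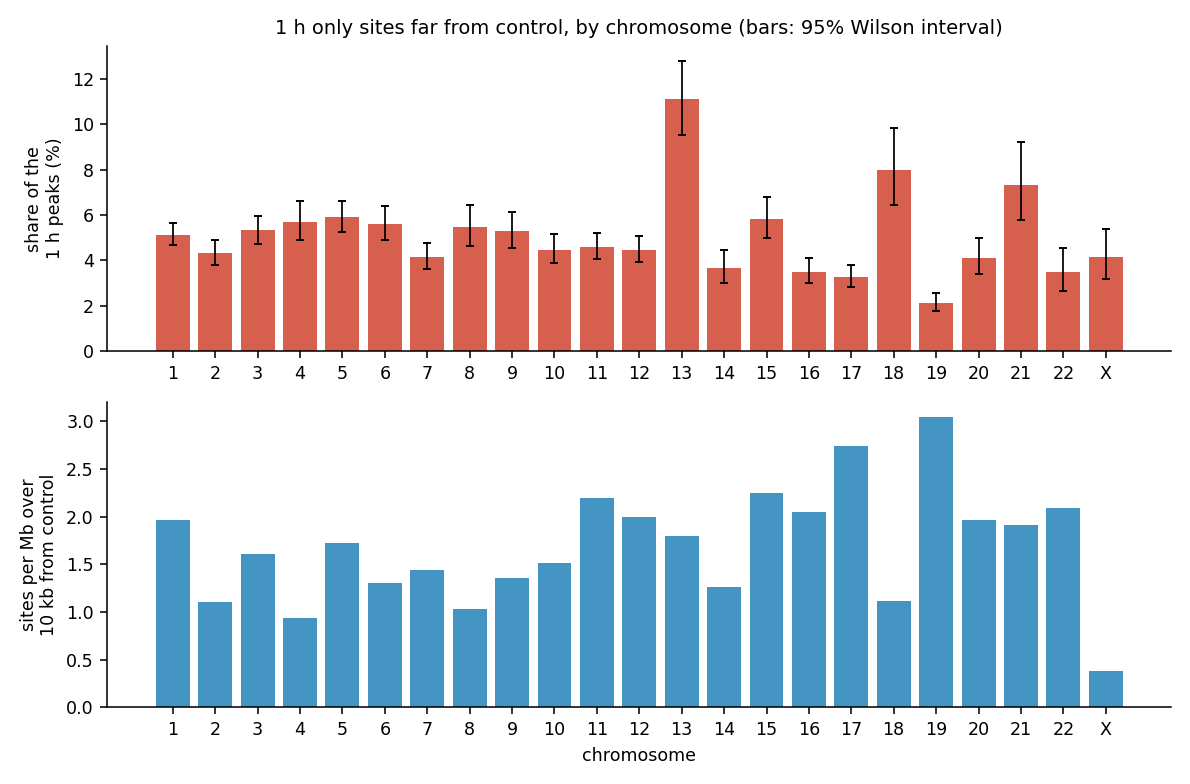
Far 1 h sites by chromosome: above, their share of the chromosome's 1 h peaks (%, bars with 95% Wilson intervals), and below, their number per Mb of sequence over 10 kb from control. Chromosome 13 is highest above, at 11.1%, and chromosome 19 is lowest above and highest below, at 2.12% and 3.05 per Mb.

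TOP2A was seldom found at these sites. The TOP2A list was not used to choose them. It overlapped 2 of 3847 sites (0.052%, 0.0143 to 0.189), against 1.42% of all 1 h peaks. It overlapped 0.038% (0.0192 to 0.0749) of the 1 h only regions within 10 kb of control and 3.35% (3.16 to 3.55) of regions in all 3 lists. The intervals of both 1 h only classes overlap. Per Mb of covered length, regions with TOP2A numbered 2.07 among the far 1 h sites, 1.43 among 1 h only regions near control and 22.4 among those in all 3 lists. For far regions at 30 min only the value was 7.21, and for far regions in control only 29.4. These rest on 2 and 8 regions, and the 2.07 rests on 2 sites. TOP2A was mapped without merbarone, so nothing is known here of TOP2A at 1 h.

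A site of 187 bp at chr16:89490401-89490587 and a site of 343 bp at chr6:157731623-157731965 overlapped TOP2A. The TOP2A peaks there spanned 73 bp, the smallest width of that list, and 80 bp. A site of 163 bp at chr5:16680040-16680202 lay 19 bp from TOP2A, one of 296 bp at chr1:9473344-9473639 lay 221 bp away, and one of 159 bp at chr19:2198646-2198804 lay 325 bp away. All 5 lay 16008 bp or less from control, below the median of 21367 bp over all far 1 h sites.

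TOP2A lay within 10 kb of 20 sites (0.52%, 0.337 to 0.802), against 6.03% of all 1 h peaks and 5.62% (5.31 to 5.94) of 1 h only regions near control. Distance from control keeps most TOP2A away, since only 228 of 1840 TOP2A peaks (12.4%) lay over 10 kb from control Pol II. Of those 228, 11 (4.82%) had a far 1 h site within 10 kb. Far regions at 30 min only had TOP2A within 10 kb in 0.484% (0.235 to 0.995) of cases, an interval that includes the value of the far 1 h sites. Far regions in control only had it in 1.49% (0.988 to 2.25). These were chosen by their distance from 1 h peaks and not from control, and TOP2A and control Pol II were both mapped in cells without merbarone.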

How the data were processed

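Chromatin was fixed with 1% formaldehyde for 10 min and libraries were made by ChIPmentation, which cuts DNA with a transposase, per the labels' protocols. The submitters' processing notes name the hg19 build and the tools Bowtie 1.2.0, MACS2 and deepTools 2.4.1. How the authors set the peak threshold, which background they used and how they combined libraries is not stated in the labels or notes used here. Deposited were peak starts and ends in bp, in 1 list per condition. Starts were read as counted from 0 and are printed counted from 1. A distance of 1 bp means that peaks touch.

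The lists held 87911 peaks in control, 85990 at 30 min, 81816 at 1 h and 1840 for TOP2A. Read depth was unknown. Peaks were merged on an overlap of 1 bp, and peaks that only touch were left separate. Runs joined sites, and domains joined all Pol II peaks, across gaps up to 5 kb. Sequence over 10 kb from control was counted from the first to the last Pol II peak of each chromosome.

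Named regions are the 10 widest sites, the 10 runs with the most sites, the 5 farthest from control, from 30 min peaks and from any Pol II peak, the 5 nearest to TOP2A, 3 on either side of the distance limit, and the chromosomes with the most and fewest sites. Other chromosomes, and the 2 stretches between control peaks, were named after their values were seen. Sites, rules and counts were chosen with earlier results of these data known. No test was run, as there is 1 list per condition. The interval functions gave the same values as bedtools 2.31.1 on simulated data, and all 200 planted sites were found. Versions were Python 3.11.15, numpy 2.4.6, pandas 2.3.3 and matplotlib 3.10.9.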

Additional observations from a re-analysis of the deposited data

How the results depend on the processing

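No library was left out in turn, since each condition has 1 list. No paired analysis was possible because each list combines its libraries. Of 77 values under other settings, 31 stayed within 1.5 times the count or within the counting interval of the value reported. Merging peaks that touch, chosen after seeing the data, changed no value beyond that.

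Over 5, 20 and 50 kb from control, sites numbered 6431, 2053 and 524. The share in runs was 60.1%, 48.8% and 32.3%, the share joined to control 35.3%, 3.99% and 0%, and the share with a 30 min peak within 10 kb 57%, 28% and 27.9%. TOP2A lay within 10 kb of 139, 5 and 3 sites and overlapped 4, 0 and 0. Far 30 min regions numbered 2372, 829 and 338, and far control regions 2214, 936 and 474, so far 1 h sites outnumbered both at each limit.

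With like limits (joining up to 37 bp, at least 159 bp), 61% of sites stood in runs, 18.7% were joined to control, 38.7% had a 30 min peak within 10 kb, and far control regions numbered 786. With peaks of at least 300 bp in all lists, 4291 sites had a median width of 410 bp, 56.6% in runs, 19.8% joined to control and 32.2% with a 30 min peak within 10 kb. TOP2A lay within 10 kb of 36 and overlapped 5, and far regions numbered 936 at 30 min and 397 in control. The number of sites is not lower there, since narrow control peaks are left out too.

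When a 30 min peak within 1 kb counted as shared, 51.4% were in runs, 26.2% had a 30 min peak within 10 kb and 1 overlapped TOP2A. When sharing needed an overlap of 50%, the median width was 214 bp, 56.2% were in runs and 39.4% had a 30 min peak within 10 kb. Runs across 1 or 10 kb held 34.4% or 60.6% of sites, and domains across 1 or 10 kb joined 0.728% or 36.5% to control.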
